A study of Mus musculus with 11 samples.

Results

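The cytosolic ribosomal protein genes encode the protein subunits of the ribosome that translates nuclear messages. They were chosen by name, as the rows of the expression table whose mouse symbol starts with Rpl or Rps followed by a digit, together with Rplp0, Rplp1, Rplp2 and Rpsa. Ribosomal S6 kinase genes and names with "-ps" were left out. This gave 92 of 36788 gene identifiers, 54 of the large (60S) subunit and 38 of the small (40S) subunit by name. Of the 92, 86 are annotated as protein-coding genes and 6 as processed pseudogenes, which arise when a message is copied back into the genome. The rule also takes in Rps19bp1, which encodes a binding partner of Rps19 and not a ribosomal subunit, and it passes over Fau and Rack1, which encode Rps30 and a scaffold protein of the 40S head under other names. These 2 genes are described beside the members.

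Every ribosome holds one copy of most of these proteins (the stalk proteins are the exception), so the cell makes them in balanced amounts, and any in excess is broken down. Their messages typically begin with a C followed by a run of pyrimidines, the terminal oligopyrimidine (TOP) motif, through which mTORC1 and the RNA-binding protein LARP1 adjust how strongly they are translated. Much of their control in liver therefore acts on translation, which mRNA levels do not show.

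The values come from liver RNA-seq of wild type (WT C57BL/6) female mice older than 12 weeks. All animals had been ovariectomized (OVX) and fed a high-fat diet. The FSH group (FSH1, 2, 3, 4 and 6, n = 5) was treated with follicle-stimulating hormone, which per the study's methods was a daily intraperitoneal injection of 30 IU/kg, and the control group (n = 6) with saline. Each library is counted as one mouse, so p-values measure the spread between these animals. No group without ovariectomy or without the high-fat diet is compared here, and no protein or polysome measurement was used. Levels are in CPM, that is, reads on a gene scaled to a library total of 1000000. Between 10801891 and 19909327 reads were counted per library, and a count of 0 there allows a level of at most 0.278 CPM (shallowest library, counting error only). Hepatocyte markers marked the tissue as labelled, with Alb (albumin) at 56399 to 87648 CPM. Some markers of other liver cells differed between the groups, and their part in the results below was not tested. All 8 Kupffer and macrophage markers had a negative log2 fold change (median -0.47), with Cd68 called (12.5%, against 10.6% of all tested genes). At an unadjusted p under 0.05 limma had 4 of the 8 and edgeR 5, against 25.1% of all tested genes in limma. Their summed level was 111.2 to 303.6 CPM with FSH and 182.5 to 360.3 CPM with saline, and none of the 8 was at 0. All 6 stellate cell markers were also negative (median -0.35), and limma and edgeR called 0 of them, with 0 and 1 at an unadjusted p under 0.05. Their sums of 215.8 to 316.1 CPM with FSH and 262.4 to 364.7 CPM with saline overlapped. Of the hepatocyte markers 5 were above and 5 below 0, with Ass1 (0.59) and Hnf4a (-0.44) called, and Hnf4a kept its call in 17 of 27 settings. The lymphocyte, endothelial and bile duct lists had medians of -0.05, -0.08 and 0.28 and 1 call each of 7, 6 and 5 genes, which were Ighm (0.72), Lyve1 (-0.63) and Krt7 (0.69). Ighm lost its call without FSH1, FSH3 or FSH4 (adjusted p up to 0.068). The labels state a papain digestion of the liver ahead of RNA extraction, and its part in these marker levels was not tested. Bulk liver RNA cannot tell fewer cells of a type from less RNA per cell.

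The sequences shown first are those that bear on how the members can be counted and on what they share. Start-site windows of 30 bases were read from RefSeq (GRCm38.p6), with the annotated start in the middle and the longest run of C and T in capitals.
Rpl15, chr14:18270972-18271001, minus strand: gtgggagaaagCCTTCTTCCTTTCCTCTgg
Rpl35, chr2:39005117-39005146, minus strand: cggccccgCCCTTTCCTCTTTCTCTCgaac
Rps18, chr17:33955651-33955680, minus strand: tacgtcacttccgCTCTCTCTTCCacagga
Rplp2, chr7:141447636-141447665, plus strand: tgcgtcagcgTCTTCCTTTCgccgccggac
Rpl22l1, chr3:28805493-28805522, plus strand: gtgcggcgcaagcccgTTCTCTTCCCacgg
Rpl37rt, chr5:115110254-115110283, minus strand: gTCTTCaggccagagcccgcacccagcagt
Rpl15, Rpl35, Rps18 and Rplp2 carry a C at the annotated start followed by at least 4 pyrimidines, the form of the TOP motif. Such a start was annotated for 20.9% of the 67 members with a RefSeq start site and for 3.01% of 27025 genes. A run of at least 8 pyrimidines within 20 bases of the start was found for 44.8% of the members and 18.4% of all genes. These shares describe annotated starts, which can lie a few bases from the starts in use in liver.

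The following pair shows the only member that passed the test, Rpl37rt, beside the gene it was copied from. The coding sequence of Rpl37 (chromosome 15) and the matching stretch of Rpl37rt (chromosome 5) differ at 1 of 291 bases, which is in capitals.
Rpl37: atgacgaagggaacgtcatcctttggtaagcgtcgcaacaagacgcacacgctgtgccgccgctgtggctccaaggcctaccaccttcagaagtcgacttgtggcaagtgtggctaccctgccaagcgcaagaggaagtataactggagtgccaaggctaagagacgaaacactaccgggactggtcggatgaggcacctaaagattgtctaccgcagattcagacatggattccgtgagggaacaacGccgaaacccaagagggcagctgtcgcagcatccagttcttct
Rpl37rt: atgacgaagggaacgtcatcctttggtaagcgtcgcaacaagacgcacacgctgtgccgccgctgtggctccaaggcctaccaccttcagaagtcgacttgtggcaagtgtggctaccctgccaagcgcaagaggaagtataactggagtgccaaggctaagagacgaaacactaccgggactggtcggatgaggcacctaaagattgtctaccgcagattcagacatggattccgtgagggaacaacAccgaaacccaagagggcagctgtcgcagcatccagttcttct
Reads from this stretch can be placed on either gene. Of the 682 bases of the Rpl37rt transcript, 343 are identical to Rpl37 and 339 are not.

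Together the 92 genes took 2.11% to 2.86% of all reads of a library. Their summed level was 24738, 21097, 27258, 24826 and 26027 CPM in FSH1, 2, 3, 4 and 6. In the saline livers it lay between 22594 and 28641 CPM, with a median of 25926. The groups overlapped over most of their range, and their means of 24789 ± 2306 (SD, n = 5) and 25609 ± 2302 (SD, n = 6) differed by less than 1 SD. The 60S members summed to 14933 ± 1353 and 15375 ± 1374 CPM, and the 40S members to 9856 ± 955 and 10235 ± 934 CPM. Per kilobase of transcript and averaged over all libraries, the highest levels were those of Rplp1, an acidic stalk protein that recruits elongation factors (1134 CPM per kb), and Rpl41, the smallest ribosomal protein (878). They were followed by Rps15 (799) and Rps18 (714), both of the 40S head, and Rpl10 (687), which joins last and readies the 60S subunit for translation. The ranges of neighbours in this order overlapped over the 11 livers, and transcripts were taken at their annotated length.

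Of the 92 members, 86 reached a mean of 0.5 CPM and were compared on log2(CPM + 0.5) with limma. At an adjusted p under 0.05, 1 member was higher with FSH, among 6.19% of all 12733 tested genes, and 0 were lower, among 4.41% of all tested genes. The member that was higher was Rpl37rt. At an unadjusted p under 0.05, limma found 2 members higher and 0 lower, against 25.1% of all tested genes in either direction, and edgeR on the recovered reads found 2 higher and 1 lower while also calling 1 member. The groups did not overlap for 1 member, Rpl37rt, and for 6.67% of all tested genes. By subunit, 1 of 50 tested 60S members and 0 of 36 tested 40S members passed, and 0 of the 36 had an unadjusted p under 0.05 in limma or in edgeR. The median log2 fold change was -0.03 over the members tested, -0.02 for the 60S and -0.04 for the 40S, and 0.02 over all tested genes. With TMM scaling these moved to -0.06 for the members and -0.0018 for all genes.

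**Figure D1:**
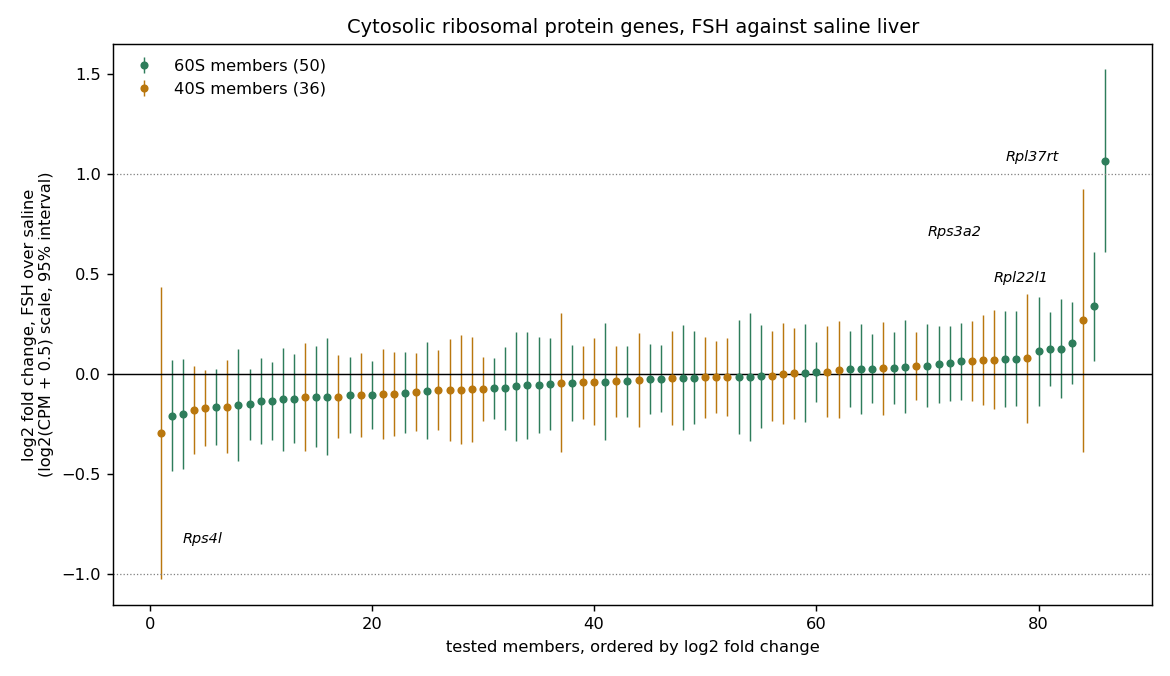
Log2 fold change of FSH over saline (y axis, log2(CPM + 0.5) scale) for the 86 tested members in ascending order (x axis), coloured by subunit, with bars for limma's 95% interval and dotted lines at an absolute value of 1. Rpl37rt stands alone at 1.07, and the intervals of 82 members stay within 0.5 of 0 (55.4% of all tested genes).

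How small a difference could have been seen was set by the spread between livers. For 80 members that are protein-coding and had a mean of at least 50 CPM, a level chosen after the values were seen, the fold changes lay between -0.21 and 0.16, with 26 above and 54 below 0. The 95% intervals of all 80 stayed within 0.5 of 0 on the log2 scale, the outermost bounds being -0.48 and 0.39, whereas 71.4% of all 2467 tested genes at that level had such an interval. With a correction for transcript length and GC content, the fold changes of the 80 lay between -0.32 and 0.13, and 78 intervals stayed within 0.5 of 0, those of Rpl31 and Rplp0 reaching past it (lowest bound -0.52). These are single-gene intervals, and they are not adjusted for the number of genes. Of all tested genes, 55.4% had an interval within 0.5 of 0, as did 82 of the 86 members. The median within-group SD of the 80 was 0.18 on the log2 scale, close to the 0.17 of all genes of at least 50 CPM.

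The members of known special role showed the same narrow range. Rps6, the target of the S6 kinases, had 494.2 ± 57.7 CPM with FSH and 507.0 ± 57.3 CPM with saline, a log2 fold change of -0.04 (adjusted p = 0.863). Rpl5 and Rpl11, which carry the 5S rRNA and bind Mdm2 when assembly fails, had fold changes of 0.05 and -0.05 (adjusted p = 0.759 and 0.826). The stalk proteins Rplp1 and Rplp2 had -0.06 and 0.01 (adjusted p = 0.815 and 0.982). Rps19, the gene most often mutated in Diamond-Blackfan anaemia, had -0.04 (adjusted p = 0.828). Of the 2 ribosome genes named outside the rule, 0 passed limma's test, 0 had an unadjusted p under 0.05, and edgeR called 0. Fau had -0.03 (adjusted p = 0.922) and Rack1 -0.14 (adjusted p = 0.276).

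Rpl37rt lies on chromosome 5 of GRCm38 from 115102923 to 115110268 on the minus strand and is annotated as a transcribed processed pseudogene, with a transcript of 682 bases that is much shorter than this span. It had 3.47, 1.33, 2.10, 1.61 and 3.24 CPM in FSH1, 2, 3, 4 and 6, from 18 to 69 reads per library. In the saline livers it had between 0.61 and 1.24 CPM, with a median of 0.76, from 7 to 17 reads. Every FSH liver was above every saline liver, although FSH2 lay close to the highest saline liver. The log2 fold change was 1.07 (SE 0.21, 95% interval 0.61 to 1.52, limma adjusted p = 0.00523), and an exact permutation test, in which the livers were split into 5 and 6 in every possible way, gave p = 0.00216, the smallest such a design allows. It also passed the study's second threshold, an absolute log2 fold change over 1, as did 1.83% of all tested genes, but by so little that the value was 0.93 without FSH1, 0.95 without FSH6 and 0.85 with a pseudocount of 1 CPM. With a pseudocount of 0.1 CPM it was 1.37, and edgeR gave 1.51 (adjusted p = 0.00553).

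The surrounding genes give the context of these few reads. Rpl37 itself, at 181.7 ± 14.1 CPM with FSH and 178.5 ± 28.4 CPM with saline, was at 0.04 on the log2 scale (adjusted p = 0.876), where Rpl37rt averaged 2.35 and 0.81 CPM. Rpl37rt begins 31 bases past the end of Acads, a short-chain acyl-CoA dehydrogenase gene of fatty acid oxidation on the same strand. Acads had 162.5 to 215.4 CPM with FSH and 158.9 to 234.2 CPM with saline, which is -0.05 on the log2 scale (adjusted p = 0.81). The nearest gene on the other side, Sppl3, had -0.13 (adjusted p = 0.40). Gm10401, 4628 bases away on the strand of Rpl37rt, had 1.64 to 3.59 CPM with FSH and 0.15 to 3.42 CPM with saline. Its log2 fold change of 0.58 had the same sign as that of Rpl37rt (limma adjusted p = 0.36). Unc119b, past Acads, had -0.18 (adjusted p = 0.50). How reads shared by Rpl37 and Rpl37rt were divided, and whether reads running on from Acads were counted here, was not tested.

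Related members were compared in pairs, as log2 ratios within each liver. Most were a gene and a paralog or copy of it, among them the pseudogene Rps4l with Rps4x, while Rplp1 and Rplp2 are distinct stalk proteins that sit together in the ribosome. Of 10 pairs written down, 7 had both members tested, and at an adjusted p under 0.05 (exact permutation test, adjusted over the 7) 0 ratios differed between the groups, with 0 also at an unadjusted p under 0.05. The smallest exact p values were 0.0952 for Rpl7 to Rpl7l1 and 0.0996 for Rpl22 to Rpl22l1 (adjusted p = 0.349 for both). Rpl3l, the muscle form of Rpl3, had at most 2 reads in a library. Rpl10l and Rpl39l, known from testis, had 0 reads in all 11 libraries, which in the deepest library allows up to 0.151 CPM.

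Rpl22l1 is the copy that rises in cells lacking Rpl22, which binds its message. It had 45.5, 39.5, 51.6, 49.9 and 29.8 CPM in FSH1, 2, 3, 4 and 6. In the saline livers it had between 28.3 and 36.1 CPM, with a median of 34.0. The first 4 of these FSH livers were above every saline liver, and FSH6 was below all saline livers but saline 6. The log2 fold change was 0.34 (SE 0.13, limma adjusted p = 0.109, exact permutation p = 0.0519). Without FSH6 it was 0.47 with an adjusted p of 0.00845, and with array weights 0.41 with an adjusted p of 0.0277, so whether it passed depended on 1 library and on the fit. With length and GC correction it was 0.19 (adjusted p = 0.318). Rpl22 had 194.7, 160.3, 224.7, 177.7 and 174.5 CPM in the FSH livers and 161.2 to 179.0 CPM in the saline livers, with a median of 169.8. FSH1 and FSH3 were above and FSH2 was below all saline livers, and the log2 fold change was 0.13 (adjusted p = 0.410). When one library was left out, that of Rpl22 lay between 0.06 and 0.18. The log2 ratio of Rpl22 to Rpl22l1 was 2.11 ± 0.26 with FSH and 2.32 ± 0.10 with saline, a difference of -0.21, and -0.32 without FSH6 (adjusted p = 0.0333, exact permutation test over the 7 pairs). The unadjusted exact p there, 0.00476, is the smallest that the remaining livers allow. FSH6 had the highest ratio of all livers (2.53), so leaving it out moves the difference away from 0, and it was singled out after the values were seen.

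**Figure D2:**
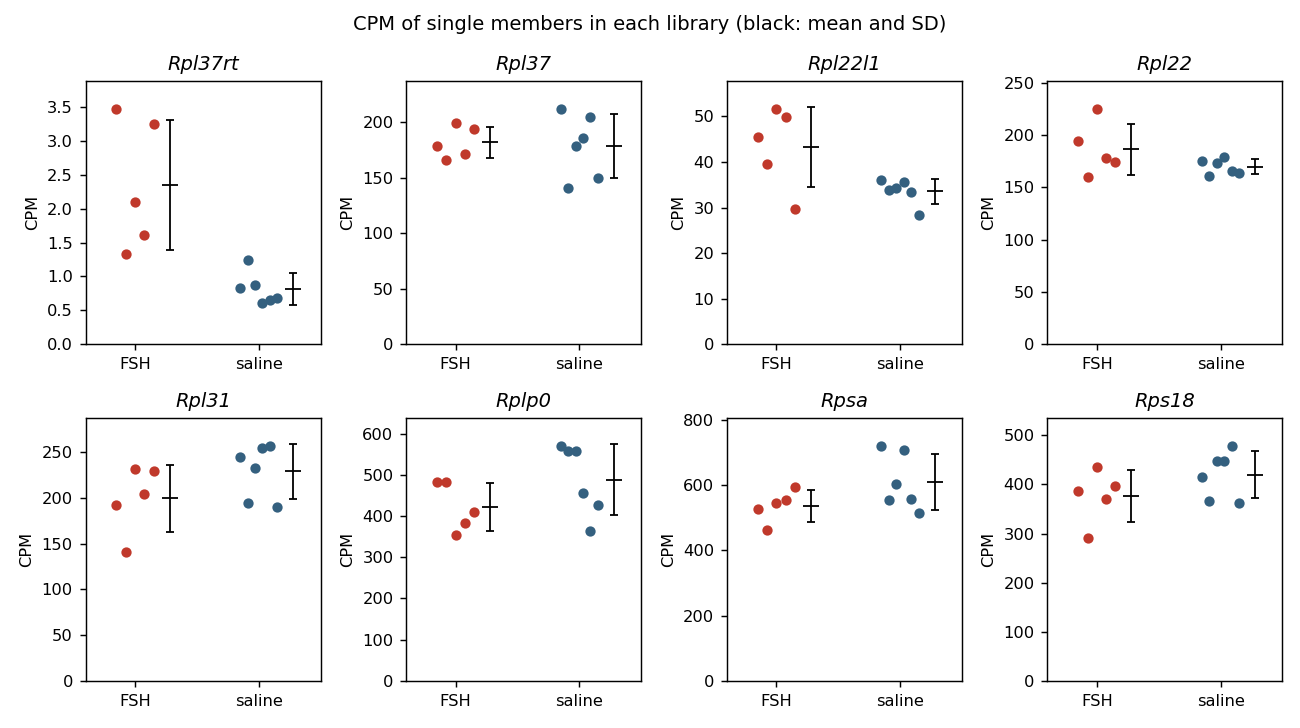
CPM (y axis, from 0) of 8 members in each of the 5 FSH (red) and 6 saline (blue) livers, with the mean and SD in black. The Rpl37rt groups do not overlap, 4 of 5 FSH values of Rpl22l1 are above all saline values, and the other 6 members overlap.

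At the lower end stood Rps4l at -0.30 (adjusted p = 0.649), a pseudogene copy of Rps4x that lies within Tmtc1 on the other strand. It had 11.4, 11.6, 8.04, 11.9 and 6.75 CPM in FSH1, 2, 3, 4 and 6. The saline livers had between 6.39 and 37.1 CPM, with a median of 9.16. The lower mean came from saline 1, which alone held 37.1 CPM, and without it the fold change was 0.02 (adjusted p = 0.97). Next came Rpl31 at -0.21, an exit-tunnel protein, then Rplp0 at -0.20, the base of the stalk, Rpsa at -0.18, which is also known as the laminin receptor, and Rps3 at -0.17, at the mRNA entry channel (adjusted p between 0.265 and 0.370). Rpl31 had 192.6, 141.0, 231.4, 204.2 and 229.1 CPM in the FSH livers and 190.3 to 256.6 CPM in the saline livers, with a median of 238.6. FSH2 was the lowest of all, and without it the fold change was -0.09. When one library was left out, Rplp0 ranged from -0.28 to -0.14, Rpsa from -0.23 to -0.13 and Rps3 from -0.20 to -0.10. At the upper end, after Rpl37rt and Rpl22l1, were Rps3a2 at 0.27, a pseudogene of at most 23 reads in a library, Rpl3 at 0.16, a protein near the peptidyl transferase centre, and Rpl39 at 0.13, at the exit tunnel (adjusted p between 0.346 and 0.646). These values rested in part on single livers, being 0.06 for Rps3a2 without saline 1, 0.09 for Rpl3 without saline 5 and 0.02 for Rpl39 without FSH3.

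Across livers the members moved together more than they differed between groups. The median of the 80 members lay below its mean over all livers by 0.25 (log2) in FSH2, 0.16 in saline 6 and 0.13 in saline 2, and above it by 0.18 in saline 1, 0.13 in FSH3 and 0.13 in saline 4. FSH2 was the lowest of the 11 livers for 46 of the 80 members and saline 2 for 19, while saline 1 was the highest for 35 and FSH3 for 18. The low and high livers thus came from both groups. The 60S and 40S medians followed each other with a Pearson r of 0.99 over the 11 livers. With group means removed, a member's correlation with the mean of the other members had a median of 0.85, and it was over 0.8 for 52 of 80 members. These correlations are descriptions over 11 libraries that the members share.

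Rplp0, also called 36B4 and often used as a reference gene in quantitative PCR, did not follow the others (r = -0.19, the lowest of the 80). It had 483.1, 481.8, 354.8, 382.5 and 411.0 CPM in FSH1, 2, 3, 4 and 6. The saline livers had between 364 and 570.3 CPM, with a median of 507.0. It was high in FSH2, where most members were at their lowest, and at its lowest in FSH3, where most were high. Matched pseudogene rows held 11.1% of the reads of Rplp0 and its copies. Next lowest were Rpl3 (r = 0.17), Rpl5 (0.27), Rpl15 (0.27) and Rps3 (0.31). These ranks are those of the uncorrected values. With length and GC correction Rplp0 had an r of -0.03, and several members were lower, among them Rpl29 (-0.67), Rps26 (-0.53) and Rpl27a (-0.49). Rpl3, Rpl5, Rpl15 and Rps3 then had 0.33, 0.25, -0.10 and 0.41, against a median of 0.31.

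Outside the family, the tested genes most like the members' mean log2 level over the 11 livers were H2afj, a histone H2A variant (r = 0.97), Rnaseh2c, a subunit of RNase H2 (0.95), Ndufs6, of respiratory complex I (0.94), Rbm8a, of the exon junction complex (0.94), and the predicted gene Gm10231 (0.93). Fau followed the members as closely (0.94), while Rack1 did not (0.03). The shared rise and fall was read beside transcript length, since the median member transcript has 886.5 bases and the median tested gene 2903. Over the livers the members' median had an r of 0.64 with the median of the shortest 20% of other tested genes (up to 1604 bases) and of -0.89 with that of the longest 20% (from 4837 bases). In FSH2, saline 2 and saline 6 the longest 20% was higher than its mean by 0.16, 0.11 and 0.15.

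**Figure D3:**
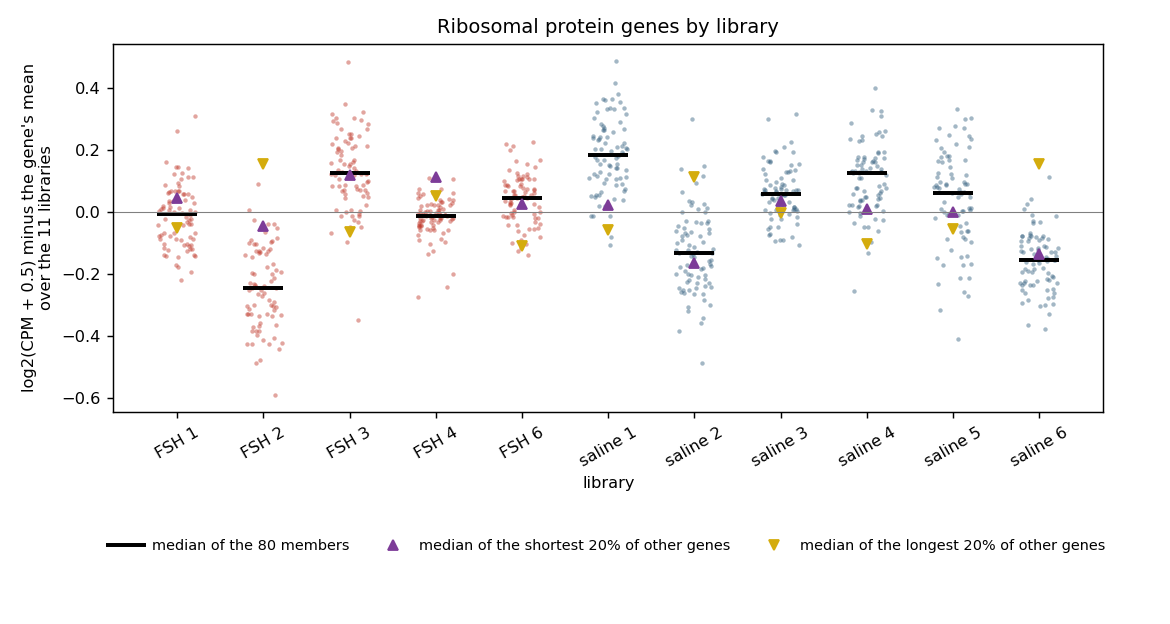
Log2(CPM + 0.5) minus each gene's mean over the 11 livers (y axis) for the 80 abundant members (points) in each library (x axis), with their median (bar) and the medians of the shortest 20% (upward triangles) and longest 20% (downward triangles) of the other tested genes. FSH2, saline 2 and saline 6 are low in the members and high in the longest genes.

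A correction of every library for transcript length and GC content, fitted as a smooth curve over all tested genes, left a different picture. The within-group SD of the 80 members fell from a median of 0.18 to 0.10, and their correlation with each other from a median of 0.85 to 0.31. The median member then lay at -0.06, -0.12, -0.01, -0.05 and -0.05 in FSH1, 2, 3, 4 and 6, and between 0.02 and 0.09 in the saline livers. The medians of the groups no longer overlapped. Of the 86 members tested, 76 were lower with FSH, their median being -0.09 against 0.02 for all genes. At an unadjusted p under 0.05, 21 were lower and 1 higher, whereas 11.4% of all genes were lower at that level. The members were measured in the same livers and still moved together in part (median r 0.31), so their counts are not separate observations. Rpl31 (-0.32, adjusted p = 0.0370) and Rps18 (-0.23, adjusted p = 0.0378) passed the adjusted threshold besides Rpl37rt (0.99, adjusted p = 0.00909). These are 3 of 86 members, where 12.5% of all tested genes were called under the same correction. A median of -0.09 is a level 5.8% lower. Without the correction, the shortest 20% of other genes was higher with FSH by 0.09 while the longest 20% differed by -0.01 and the 80 members by -0.04. The cause of the change with the correction was not tested.

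**Figure D4:**
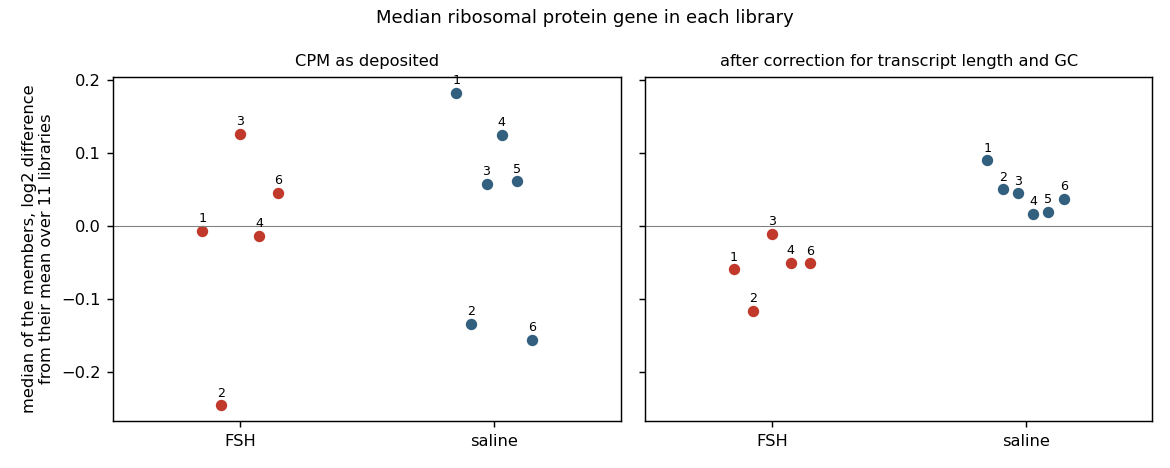
Median of the 80 abundant members in each FSH (red) and saline (blue) liver, as the log2 difference from their mean over the 11 livers (y axis), for CPM as deposited (left) and after correction for transcript length and GC content (right), with library numbers beside the points. The groups overlap on the left, while on the right all 5 FSH livers lie below all 6 saline livers.

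The genes that build, regulate and accompany the ribosome were followed as lists. Of the 78 tested mitochondrial ribosomal protein genes, which serve the separate ribosome that translates mitochondrial DNA, 4 were higher and 0 lower, that is, 5.13% called against 10.6% of all tested genes. The count of 4 was 2 without FSH3, 8 without FSH6 and 7 with array weights, while the count over all tested genes went from 1350 to 910, 1659 and 1892. At an unadjusted p under 0.05 there were 15 (19.2%, against 25.1% of all tested genes), and edgeR called 3. The median log2 fold change of the 78 was 0.12, with 61 above 0, and 0.07 with length and GC correction. The shortest 20% of other tested genes had a median difference of 0.09. Mrps9 rose from 21.8 ± 2.0 to 30.05 ± 1.44 CPM (log2 fold change 0.46, adjusted p = 0.00365), Mrpl15 from 65.8 ± 6.3 to 89.8 ± 9.1 CPM (0.44, adjusted p = 0.00571), and Mrpl47 (0.38, adjusted p = 0.0191) and Mrpl48 (0.32, adjusted p = 0.0380) also rose. Mrps9, Mrpl15 and Mrpl47 did not overlap between the groups, that is, 3 of 78, where 6.67% of all tested genes did not overlap. Mrpl48 held its call in 11 of 27 settings and lost it in edgeR (adjusted p = 0.0767) and with TMM scaling (adjusted p = 0.0687). Without FSH1 its adjusted p was 0.102, and Mrpl47 had 0.0579 without FSH3.

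Translation initiation factors bring the message and the first tRNA to the 40S subunit. In their list, which also holds the kinases that inhibit them, 4 of 29 genes were lower and 0 higher, with a median of -0.01. This is 13.8% called, against 10.6% of all tested genes in either direction and 4.41% lower. At an unadjusted p under 0.05 there were 7 in limma (24.1%, against 25.1% of all tested genes) and 6 in edgeR. Eif3a, the central subunit of the 40S-binding factor eIF3, had 108.5, 103.9, 104.0, 127.7 and 100.6 CPM in FSH1, 2, 3, 4 and 6 and 134.3 to 153.9 CPM with saline. The groups did not overlap, and the log2 fold change was -0.40 (SE 0.08, adjusted p = 0.00534). Its partner Eif3b fell from 102.9 ± 9.7 to 80.4 ± 9.6 CPM (-0.36, adjusted p = 0.0285), a call held in 19 of 27 settings and lost without FSH1, 2, 3 or 4 or saline 1, 2 or 3 (adjusted p up to 0.0814). Eif1a, of the scanning complex, fell from 51.9 ± 7.5 to 34.7 ± 3.8 CPM (-0.57, adjusted p = 0.00435). Eif2ak3, which encodes the stress kinase PERK and is not itself an initiation factor, fell from 13.7 ± 3.8 to 8.36 ± 1.73 CPM (-0.65, adjusted p = 0.0496), a call held in 12 of 27 settings, lost among others with voom on the recovered reads (adjusted p = 0.0576) and without any 1 library other than FSH2 and saline 4 (adjusted p up to 0.121). edgeR called 5 genes of the list, with Eif4g3 besides (-0.30, adjusted p = 0.0391), named after its values were seen.

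Of all tested genes, limma called 10.6% and edgeR 11.3%, and 25.1% had an unadjusted p under 0.05 in limma. Among RNA polymerase I and its factors, which make the rRNA, 1 of 24 was higher, Taf1b of the promoter selectivity factor (0.62, adjusted p = 0.0296). It kept its call in 19 of 26 settings and lost it without FSH1, FSH2, saline 3, saline 4 or saline 6 (adjusted p up to 0.0941). Of the 24, 3 had an unadjusted p under 0.05 in limma and 1 in edgeR. For assembly of the 60S subunit, 1 of 68 was higher, Rrp1b (0.70, adjusted p = 0.0151, groups not overlapping), and edgeR also called Mdn1 (-0.41, adjusted p = 0.0257). The groups did not overlap for 4 of the 68, and for 6.67% of all tested genes. Of the 68, 9 had an unadjusted p under 0.05 in limma (13.2%) and 9 in edgeR. For assembly of the 40S subunit 0 of 53 passed limma's test, with 3 at an unadjusted p under 0.05 and 0 called by edgeR. Of the chaperones and importers that carry new ribosomal proteins into the nucleus, 0 of 17 passed limma's test, with 3 at an unadjusted p under 0.05, whereas edgeR called Ipo4 (-0.30, adjusted p = 0.0491) and Kpnb1 (-0.35, adjusted p = 0.0260). The genes called by edgeR alone are named after their values were seen. The elongation factors and other messages of the TOP class had 0 of 22 called by limma or edgeR (2 and 1 at an unadjusted p under 0.05) and a median of -0.02. In the list of mTORC1, LARP1 and growth control genes, 1 of 49 was higher, Fnip2, a partner of folliculin in amino acid signalling to mTORC1 (41.9 ± 8.1 against 23.7 ± 7.1 CPM, 0.84, adjusted p = 0.00902). edgeR also called folliculin itself, Flcn, which was lower (-0.59, adjusted p = 0.0332, and 0.0631 in limma). In this list 10 genes had an unadjusted p under 0.05 in limma (20.4%) and 13 in edgeR. The lowest log2 fold change of the list, -1.22, was not called by limma. Ribosome quality control (0 of 19, with 1 at an unadjusted p under 0.05) and the 5S particle and p53 surveillance (0 of 5, with 0 at an unadjusted p under 0.05) had no gene called by limma, and edgeR called 0 in both. Over the initiation list, the other lists and the 2 genes outside the rule, without the mitochondrial ribosomal proteins and the cell markers, 7 of 288 tested genes passed limma's test (2.43%) and edgeR called 12, with 38 at an unadjusted p under 0.05 in limma (13.2%) and a median of 0.02.

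**Figure D5:**
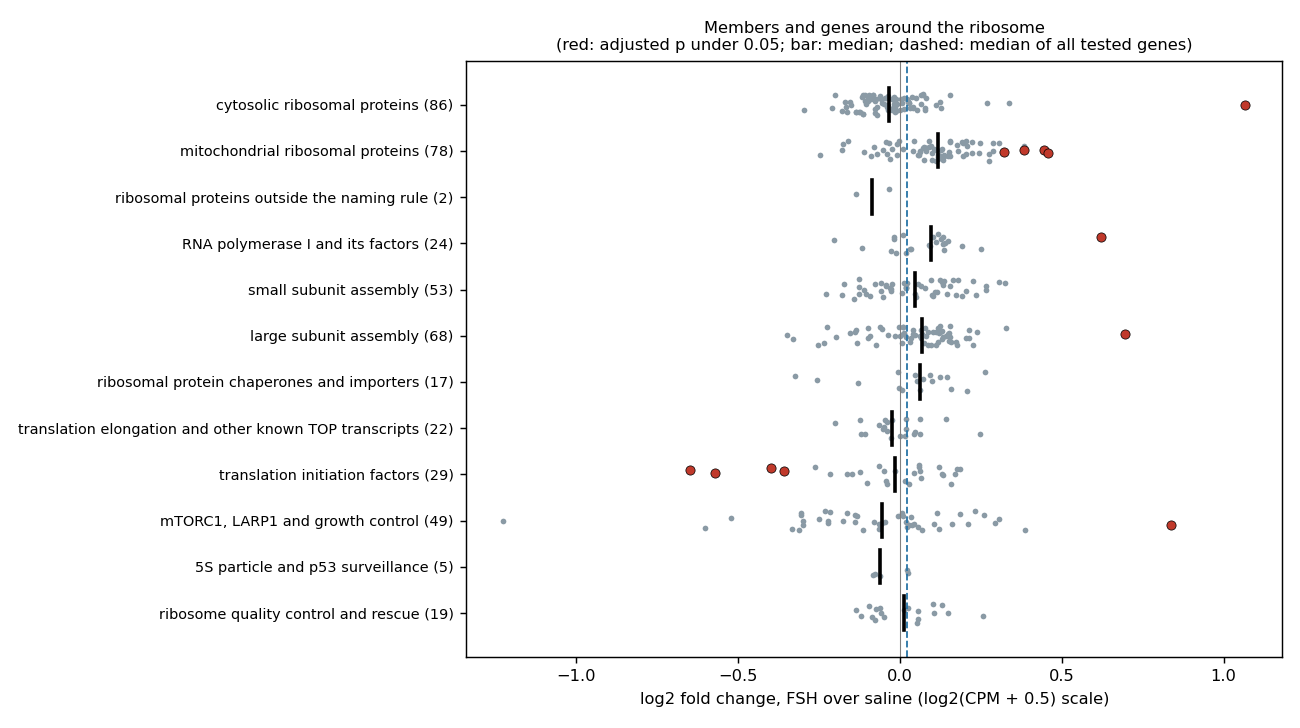
Log2 fold change of FSH over saline (x axis, log2(CPM + 0.5) scale) of every tested gene in 12 lists (rows, with the number tested), with genes at an adjusted p under 0.05 in red, list medians as bars and the median of all tested genes as a dashed line. Apart from Rpl37rt at 1.07 the cytosolic members lie between -0.30 and 0.34, and the called genes Eif3a, Eif3b, Eif1a and Eif2ak3 stand to the left. The lowest point, at -1.22 in the list of mTORC1, LARP1 and growth control genes, was not called.

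Copies elsewhere in the genome can take reads from the members. By sequence or name, 431 pseudogene rows with reads were matched to a member, and they summed to 338.4 to 636.9 CPM per library, 1.42% to 2.28% of the reads of both. The share was largest for Rpl27a (41.4%), Rpl31 (27.99%), Rpl5 (15.2%) and Rpl30 (14.2%). With these reads added back, the count of members called stayed at 1, and the log2 fold change of Rpl31 was -0.18 (adjusted p = 0.449). Rps27rt, whose 252-base stretch is identical to the coding sequence of Rps27, had 0.74 to 1.25 CPM with FSH and 0.83 to 1.16 CPM with saline, and Rps27 had 111.2 to 154.0 and 109.8 to 150.4 CPM. Their split between near-identical rows is uncertain.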

How the data were processed

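Liver mRNA libraries (NEBNext Ultra) were sequenced by the authors, whose processing notes name FastQC 0.11.2, Trim Galore 0.3.3, cutadapt, STAR, RSEM and the build mm10. The authors deposited CPM values for 36788 Ensembl identifiers, without filter or scaling between libraries. All values (100%) were whole multiples of one read, within 0.1 reads, so reads were recovered. RSEM usually gives fractional counts for shared reads, so how whole reads were assigned to near-identical genes is not known here, which bears on Rpl37rt and the pseudogenes. Strand use is not given in the sources used here. Identifiers were matched to GENCODE M21 symbols (35555 named).

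The 12733 genes averaging 0.5 CPM or more were compared on log2(CPM + 0.5), which understates changes of low genes, with limma 3.58.1 (R 4.3.3, intensity trend, Benjamini-Hochberg adjustment). Single values were compared by exact two-sided permutation over all splits of the livers. The code was tested on simulated data, in which limma found 31.3% of log2 changes of 0.5 and 89.6% of changes of 1 among 12733 genes. There 200 genes were changed, all genes had the same dispersion (0.0315) and no shift was shared by the genes of a library. These shares therefore do not give the power in these livers. Pseudogenes were matched with BLAST+ 2.17.0 (at least 80% identity over 50% of the row). edgeR 4.0.16 and scaling to the median member were added after seeing the data.

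Genes named are the 5 highest and 5 lowest members, members called, paralog pairs, Fau, Rack1, the 5 most abundant per length, at most 4 called genes per list and the 5 genes most like the family. Members of known role were chosen for their function, and others are said to have been chosen after their values were seen. The members and lists were chosen with earlier results of these data known. 5 listed symbols had no row. Some results are not reported here.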

Additional observations from a re-analysis of the deposited data

Results flagged for a closer look

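In 56 groups of values of the named members, 5 libraries stood apart from the rest of their group (Dixon's test at 95%), where chance flags about 1 in 20 groups. Rps4l had 37.1 CPM in saline 1, and its lower mean with FSH rested on that library. Rpl3 had 275.7 CPM in saline 5, below the other saline livers at 347.5 to 383.8 CPM. Rpl22l1 had 28.3 CPM in saline 6, the lowest of all livers. Rps27rt had 1.16 CPM in saline 2, from few reads. Rpl10 had 480.7 CPM in FSH2, the liver in which most members were at their lowest.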

How the results depend on the processing

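Rpl37rt kept its direction and its call under every alternative in which it was tested, with log2 fold changes of 0.85 to 1.51 and adjusted p from 0.0028 to 0.0254. The count of members higher with FSH was 0 with a filter at a mean of 5 CPM, which removes Rpl37rt, 2 with array weights and 1 to 2 when one library was left out. The count lower was 0 except with length and GC correction, which gave 2. The count past both thresholds was 0 with a pseudocount of 1 CPM, with the 5 CPM filter and with length and GC correction, and 0 to 1 when one library was left out. The median of the members lay between -0.09 and 0.03 under the alternatives, and moved by less than the SD of 0.136 of the uncorrected library medians. That SD does not measure the smaller spread left after length and GC correction. There the library medians were -0.12 to -0.01 with FSH and 0.02 to 0.09 with saline, and the groups did not overlap. The genes called in the lists around the ribosome numbered 11 with TMM and with median of ratios scaling, 15 with array weights, 12 with edgeR, 3 with scaling to the median member (chosen, as edgeR was, after seeing the data) and 4 to 11 when one library was left out, being 4 without FSH1 and 11 without FSH6. Over all tested genes the calls went from 1350 to 1892 with array weights, 744 with scaling to the median member, 803 without FSH1 and 1659 without FSH6. For mitochondrial ribosomal proteins these were 7 with array weights and 2 to 8 when one library was left out (2 without FSH3, 8 without FSH6). The causes were not tested.

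The replicate numbers did not pair the samples. Deviations from the group means of same-numbered livers correlated by 0.065, 0.356, 0.019, 0.137 and -0.066 for numbers 1, 2, 3, 4 and 6. With the number as a block, 1 member was called, 1210 of all genes were called in place of 1350, and the members' median was -0.03.

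Uncalled named genes near 0 changed sign. Rpl7 was -0.0006 with TMM, -0.0008 with median of ratios and with edgeR, and -0.078 with length and GC correction. Rps27l was -0.004, -0.0041, -0.0032 and -0.1169 in the same order of TMM, median of ratios, edgeR and length and GC, and Rplp2 was -0.021, -0.0211, -0.0365 and -0.0399. With length and GC correction, Rpl36a was -0.0567, Rps27rt -0.0619 and Rps4x -0.0473. Scaling to the median member gave 0.0168 for Rpl36al, 0.0249 for Rps27 and 0.0007 for Fau. Array weights gave 0.0301 for Rps27, and the replicate block -0.0009 for Rps4x. When one library was left out, the ranges that included 0 were -0.4684 to 0.0212 for Rps4l, -0.0207 to 0.0754 for Rpl7, -0.0956 to 0.0628 for Rpl36al, -0.0777 to 0.0395 for Rps27, -0.0526 to 0.0918 for Rps27l, -0.0009 to 0.0673 for Rps4x, -0.1147 to 0.0004 for Rplp1, -0.0525 to 0.0738 for Rplp2, -0.0957 to 0.0862 for Fau and -0.0574 to 0.0311 for Rpl10. The difference of the Rps27 to Rps27l ratio ranged from -0.0857 to 0.0236 and that of the Rpl22 to Rpl22l1 ratio from -0.3178 to -0.1405. The latter passed its threshold without FSH6, the liver with the highest ratio.

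The limits are the 11 livers and the depth. Members under about 1 CPM rest on few reads, copies of a gene cannot be told apart in shared stretches, and CPM shares say nothing of total RNA per cell or of translation.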
